A study of Mus musculus with 6 samples.

Results

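The genes that carry a cell from the G2 phase through mitosis to cytokinesis were examined in astrocytes from mouse brains bearing a small-cell lung cancer (SCLC) graft and from sham-injected brains. The set holds 54 genes, chosen by symbol and role, of 35127 genes with summed counts and 14359 genes tested. All 54 were measured and passed the filter on low counts, with between 38 and 3922 estimated reads per library. Bulk RNA-seq was done on 6 libraries: 3 of tumour-associated astrocytes isolated from SCLC brain allografts (tumour libraries 1 to 3) and 3 of astrocytes from brains that received a sham injection (sham libraries 1 to 3). The sources used here do not give the mouse strain, age, tumour line, time after injection or method of astrocyte isolation, or say whether the libraries of a group came from separate animals. Levels are given as CPM (reads of a gene per 1000000 reads of the library), scaled by the trimmed mean of M values (TMM), and lists of 3 values run in the order of libraries 1 to 3. Unless another tool is named, a gene is called when edgeR's adjusted p is below 0.05. Rises and falls are fitted log2 fold changes, tumour over sham, with their standard errors (SE), and gene coordinates are those of GENCODE M21 (GRCm38).

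Entry into mitosis is driven by CDK1 bound to A- and B-type cyclins, which CDC25 phosphatases switch on. Aurora, Polo and checkpoint kinases then steer spindle assembly and chromosome attachment, and the anaphase-promoting complex (APC/C) ends mitosis by marking cyclins and securin for destruction. Most of these genes are transcribed in a burst late in the cell cycle, through the DREAM and MuvB complexes, B-MYB and FOXM1, which act at the CHR promoter element, and NF-Y, which binds CCAAT boxes. Mature astrocytes are largely quiescent in the adult brain and can re-enter the cycle after injury.

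The libraries held 22133723 to 25800897 estimated reads. They fell into 3 sets rather than the 2 labelled groups. The 3 tumour libraries differed from each other by a root mean square of 0.322 to 0.352 on the log2 scale over all tested genes, and sham libraries 1 and 2 differed by 0.351. Sham library 3 differed from the other sham libraries by 0.802 and 0.795, more than any tumour library differed from any sham library (0.734 to 0.749). The differences within the close sets were above counting noise, with a median chi-square per gene 2.39 to 2.71 times its expected value. That excess cannot tell separate animals from repeat libraries of the same animal. Each library was analysed as its own sample, as labelled. Mitochondrial genes carried 6.66% and 6.20% of reads in sham libraries 1 and 2 but 4.20% in sham library 3, against 4.05% to 4.23% in the tumour libraries. Of 12 astrocyte markers, all 12 passed the low-count filter, and their summed level was 5580 to 5690 CPM in the tumour libraries and 7370, 7390 and 4410 CPM in the sham libraries. Of 16 SCLC and neuroendocrine markers, 8 passed the filter and 0 were called in either direction by edgeR, with 0 higher and 2 lower at an unadjusted p below 0.05. Their summed level was 37.2 to 41.2 CPM in the tumour libraries and 48.8 to 55.4 CPM in the sham libraries, with Grp at 0 in all 6 libraries. Microglia and macrophage markers summed to 256 to 265 CPM in the tumour libraries and 178 to 202 CPM in the sham libraries. Among these Ptprc, Itgam and Cx3cr1 stayed below 0.4 CPM in every library, while Cd68 was 45.8, 41.3 and 44.9 CPM in the tumour libraries and at 7.34, 5.07 and 10.2 CPM in the sham libraries. Pericyte and fibroblast markers summed to 3820 to 3850 CPM in the tumour libraries and to 3530, 3530 and 6020 CPM in the sham libraries. The part of these differences in the results below was not tested, and in bulk RNA fewer dividing cells and less RNA per dividing cell cannot be told apart.

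Mitotic genes were higher in tumour-associated astrocytes. Their summed level was 2000, 2020 and 2000 CPM in the tumour libraries and 1430, 1420 and 911 CPM in the sham libraries. The groups did not overlap, and the tumour mean was 1.6 times the sham mean, or 1.41 times that of sham libraries 1 and 2 and 2.2 times sham library 3. By edgeR's quasi-likelihood test, with p-values adjusted over all tested genes and a threshold of 0.05, 23 of the 54 (42.6%) were higher in the tumour libraries, where 10.5% of all tested genes were. None was called lower (0 of 54), where 10.4% of all tested genes were, and 1 was lower at an unadjusted p below 0.05; DESeq2 and limma-voom also called 0 lower. The log2 fold change was above 0 for 51 of the 54 genes (94.4%), with a median of 0.66 and a range of -0.36 to 1.47. The median over all tested genes was -0.02. Of the called genes, 5 had a fitted change of at least 2-fold: Anln, Cdc25c, Ccnb2, Bub1b and Cenpe.

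**Figure D1:**
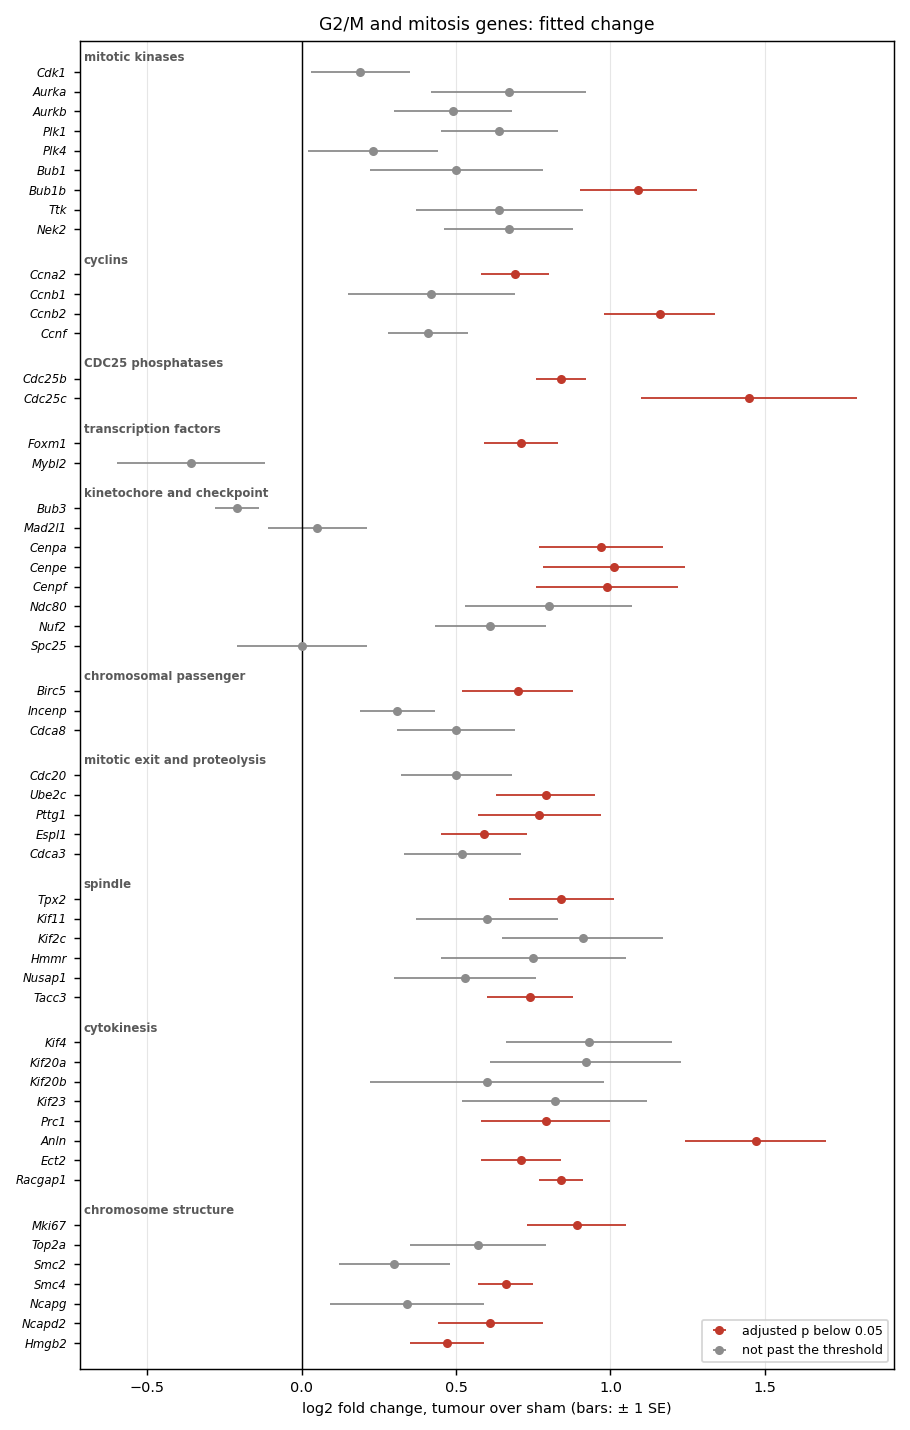
Fitted log2 fold change of each of the 54 genes, tumour over sham, by role; bars are ± 1 SE from edgeR and the colour marks genes past the threshold. All but 3 points (Mybl2, Bub3 and Spc25) lie above 0, and Anln and Cdc25c lie farthest to the right.

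In 47 of the 54 genes (87%) all 3 tumour libraries lay above all 3 sham libraries, a pattern seen in 22.2% of all tested genes. Bub3 alone had all tumour libraries below all sham libraries. Sham library 3 was the lowest of the 6 in 52 genes (96.3%), against 27.4% of all tested genes, the exceptions being Mybl2 and Bub3. The full order of tumour above sham libraries 1 and 2 above sham library 3 held for 47 genes (87%), against 8.98% of all tested genes. The median difference between tumour libraries and sham libraries 1 and 2 was 0.45 on the log2 scale, and sham library 3 lay a further 0.65 below those (a median difference of -0.65). In these genes the median gap within the sham group was therefore larger than the gap between the tumour libraries and the closer sham libraries.

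The number of calls turned on single libraries. Without sham library 3, which leaves libraries that differ by at most 0.352 within a group, edgeR called 44 of the 54 genes higher and 3 lower (Bub3, Mybl2 and Spc25), while 29.1% of all tested genes were called higher and 28.6% lower. The median log2 fold change of the 54 genes was then 0.45. Leaving out tumour library 1, 2 or 3 left 7, 7 or 6 genes called higher, where 3.73%, 3.69% and 3.7% of all tested genes were called higher. Leaving out sham library 1 or 2 left 17 or 16, where 5.83% and 5.65% of all tested genes were. Ccna2, Ccnb2, Cdc25b, Anln, Racgap1 and Smc4 were called higher whichever single library was left out. The other 17 called genes lost the call without at least 1 tumour library. Genes called higher in every such fit were not counted over all tested genes. Their number cannot exceed the lowest in any 1 fit, which was 3.69% of all tested genes. When the close libraries were summed, leaving 1 tumour and 2 sham libraries, edgeR called 0 of the 54 genes and 0 of all genes, with 10 of the 54 and 573 of all genes at an unadjusted p below 0.05.

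**Figure D2:**
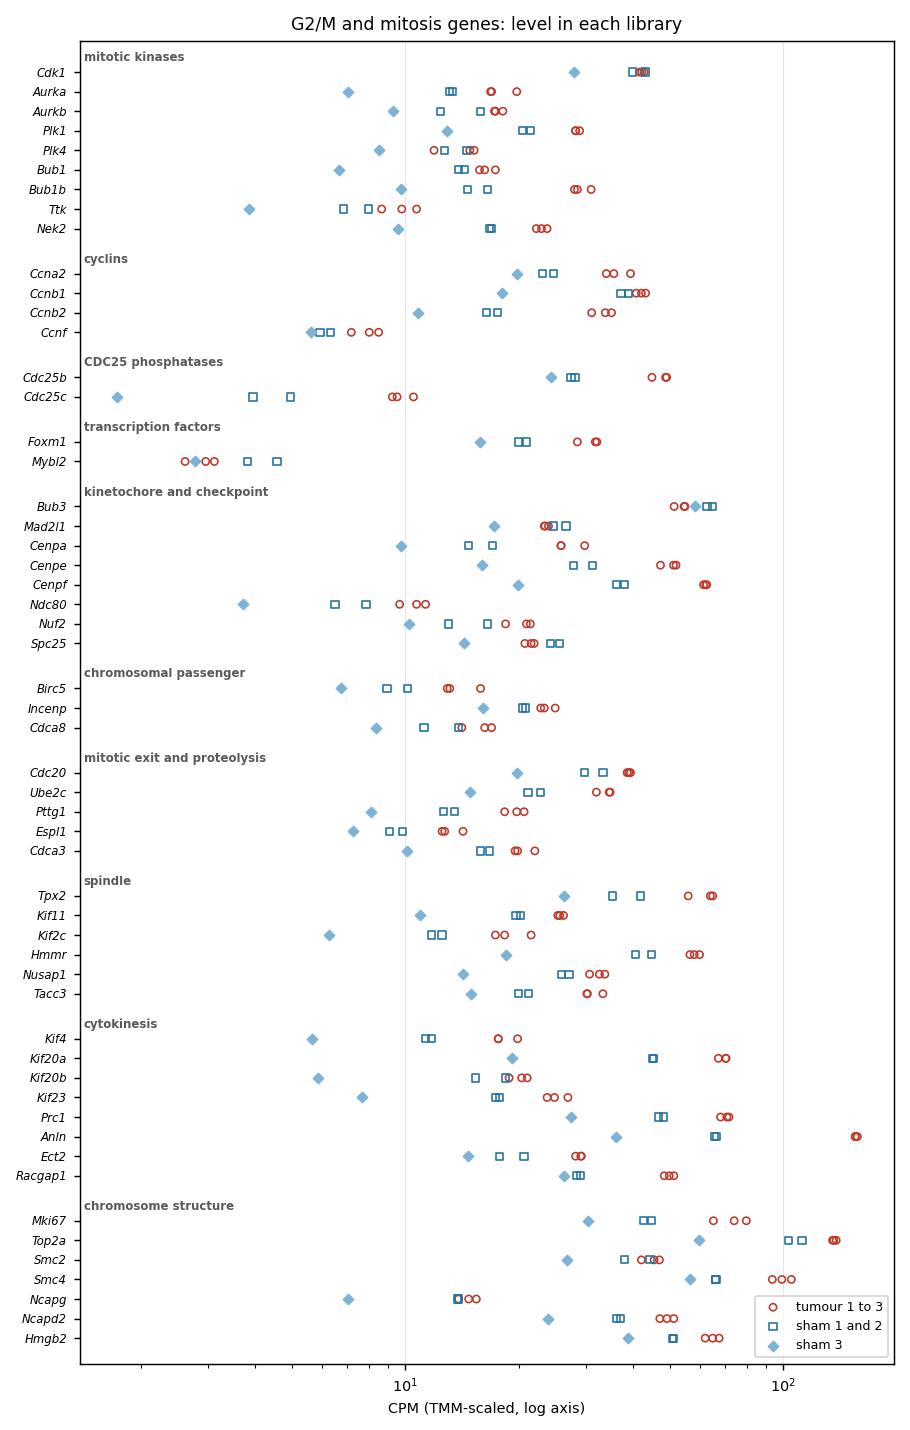
Level of each of the 54 genes in each library, in CPM on a log axis, grouped by role; each point is 1 library. All 3 tumour points lie to the right of all 3 sham points in 47 genes, and sham library 3 is the leftmost point in 52 genes.

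The promoters of these genes are shown because the factors named above act there. RefSeq promoters (GRCm38.p6, 250 bases before to 50 after the transcript start) were found for 46 of the 54 genes, 49 promoters in all; Incenp, Kif20a, Cdc25c, Smc4, Aurkb, Ccna2, Tpx2 and Foxm1 had no entry. The CHR was searched as TTTGAA or TTCGAA and the CCAAT box as CCAAT, each on both strands. The sequences below run 170 bases before to 30 after the start, 5′ to 3′ on the gene's strand, and belong to the called genes with the smallest p that hold a CHR. Capitals mark CHR and CCAAT matches, and positions give the first base of a match with the start as +1. The Racgap1 stretch is chr15:99651627-99651826 on the minus strand, with a CHR at 6 and a CCAAT box, read on the opposite strand, at -12. The Cdc25b stretch is chr2:131186778-131186977 on the plus strand, with a CHR at 8 and a CCAAT box, also on the opposite strand, at -28. The Anln stretch is chr9:22389177-22389376 on the minus strand, with a CHR on the opposite strand at 22 and no CCAAT box in the window searched. A further Anln CHR, on the gene's own strand at 29, runs past the end of the printed stretch and is not in capitals. The Ccnb2 stretch is chr9:70421525-70421724 on the minus strand, with CHR matches at -167 and 5 and CCAAT boxes at -87, -54 and -21.
Racgap1: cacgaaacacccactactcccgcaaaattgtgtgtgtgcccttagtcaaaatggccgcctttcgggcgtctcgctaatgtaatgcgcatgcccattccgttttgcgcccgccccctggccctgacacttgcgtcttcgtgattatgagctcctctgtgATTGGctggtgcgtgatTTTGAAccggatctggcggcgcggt
Cdc25b: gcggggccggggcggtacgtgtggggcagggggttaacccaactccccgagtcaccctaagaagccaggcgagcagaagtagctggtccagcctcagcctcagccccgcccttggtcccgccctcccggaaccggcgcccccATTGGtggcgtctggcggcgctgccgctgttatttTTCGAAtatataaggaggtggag
Anln: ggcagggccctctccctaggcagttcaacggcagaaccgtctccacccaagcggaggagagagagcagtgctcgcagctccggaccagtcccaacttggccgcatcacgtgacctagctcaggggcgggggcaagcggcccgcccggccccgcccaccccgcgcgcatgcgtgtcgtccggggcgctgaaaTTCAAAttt
Ccnb2: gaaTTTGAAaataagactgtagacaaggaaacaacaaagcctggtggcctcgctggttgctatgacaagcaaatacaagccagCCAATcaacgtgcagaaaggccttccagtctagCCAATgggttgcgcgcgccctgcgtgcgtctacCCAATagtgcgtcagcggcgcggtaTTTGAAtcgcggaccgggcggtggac

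A CHR was present in 38 of the 49 promoters (77.6%) and in 19.2% of all 32851 promoters in the table. A CCAAT box was present in 37 (75.5%, against 37.4%), and both elements in 34 (69.4%, against 7.52%). An E2F site, searched as TTCCCGC or TTGGCGC on both strands, was present in 8 (16.3%, against 6.81%). Matches sat near the start: 44.9% of the promoters had a CHR in the 50 bases after it, against 2.46% of all promoters, and 49.0% had a CCAAT box in the 50 bases before it, against 9.03%. The elements did not separate called from uncalled genes by count, since 16 of 20 promoters of called genes and 22 of 29 of uncalled genes held a CHR. A match is a description of the letters and not a measurement of binding.

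**Figure D3:**
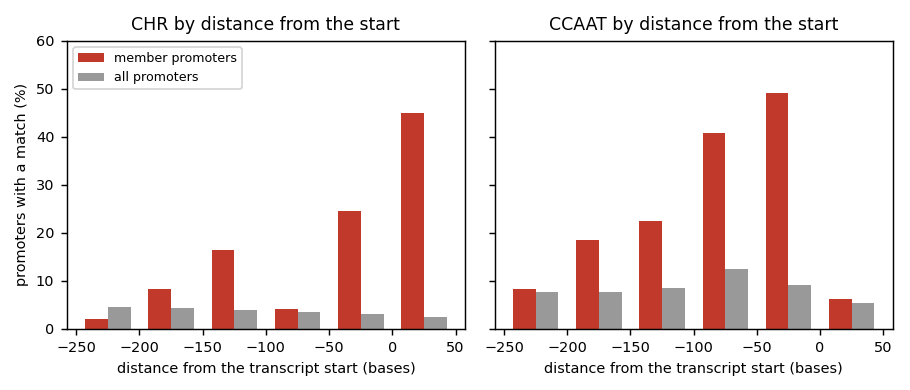
Share of promoters with a CHR or a CCAAT match in each 50-base window, by distance from the transcript start, for the 49 promoters of the mitotic genes and for all 32851 promoters in the RefSeq table. In the mitotic genes the CHR reaches 44.9% just after the start and the CCAAT box 49.0% just before it.

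Of the 9 mitotic kinases in the set, edgeR called 1 higher (11.1%, near the 10.5% of all tested genes) and 0 lower. Their median log2 fold change was 0.64. DESeq2, which called 13.6% of all tested genes higher, called Aurka, Plk1 and Nek2 higher as well as Bub1b. Bub1b, which encodes the checkpoint protein BUBR1 that restrains the APC/C until chromosomes are attached, was at 31, 28.5 and 28 CPM in the tumour libraries and at 14.6, 16.5 and 9.76 CPM in the sham libraries. Every tumour library was above every sham library, and Bub1b rose by 1.09 (SE 0.19, edgeR adjusted p = 0.0114). Cdk1, the kinase that drives entry into mitosis, was at 42.8, 41.7 and 42.2 CPM in the tumour libraries and at 43.1, 39.9 and 27.9 CPM in the sham libraries. Its groups overlapped, since sham library 1 was the highest of the 6, and its log2 change was 0.19 (SE 0.16, edgeR adjusted p = 0.428). Without sham library 3 the Cdk1 difference was 0.02. Plk1, the Polo-like kinase that acts from entry to cytokinesis, had no overlap between groups but missed the threshold, with a log2 change of 0.64 (SE 0.19, edgeR adjusted p = 0.0556); DESeq2 (adjusted p = 0.0139) and limma-voom (adjusted p = 0.042) called it higher. Aurka and Aurkb, the Aurora kinases of spindle poles and of the centromere, Nek2, a centrosome kinase, and the checkpoint kinases Bub1 and Ttk also had every tumour library above every sham library, with log2 changes of 0.49 to 0.67 and edgeR adjusted p-values of 0.0711 to 0.246. Plk4, which starts centriole duplication, overlapped between groups (log2 change 0.23, edgeR adjusted p = 0.476).

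Among the cyclins, cyclins A2 and B2 were higher and cyclin B1 was not called. Of 4 in the set, 2 were higher (50%) and 0 were lower, against 10.5% and 10.4% of all tested genes. Ccna2, the cyclin of S phase and early G2, at chr3:36564865-36572150, was at 34, 39.4 and 35.6 CPM in the tumour libraries and at 24.6, 23.1 and 19.7 CPM in the sham libraries. The groups did not overlap, and it rose by 0.69 (SE 0.11, edgeR adjusted p = 0.00809). Ccnb2, a B-type partner of CDK1, at chr9:70407692-70421547, was at 31.1, 33.8 and 35.1 CPM in the tumour libraries and at 16.4, 17.5 and 10.8 CPM in the sham libraries. It rose by 1.16 (SE 0.18, edgeR adjusted p = 0.00831), or 2.24-fold, with every tumour library above every sham library. Ccnb1, the main mitotic cyclin, was at 40.8, 43.2 and 42.1 CPM in the tumour libraries and at 39, 37.2 and 18 CPM in the sham libraries. Sham libraries 1 and 2 lay just under the tumour range and sham library 3 far below, and its log2 change was 0.42 (SE 0.27, edgeR adjusted p = 0.318). Ccnf, which encodes a cyclin-like F-box protein of the SCF ligase, lay between 5.63 and 8.49 CPM, without overlap and not called (log2 change 0.41, edgeR adjusted p = 0.0746).

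Both CDC25 phosphatases in the set, which remove the inhibitory phosphates from CDK1, were called higher, where 10.5% of all tested genes were. Cdc25b, at chr2:131186949-131198497, was at 49.1, 48.8 and 44.9 CPM in the tumour libraries and at 27.4, 28.1 and 24.3 CPM in the sham libraries. The sham libraries were close together and all below the tumour libraries, and the rise was 0.84 (SE 0.08, edgeR adjusted p = 0.00195). Cdc25c, on chromosome 18, was at 9.23, 9.5 and 10.5 CPM in the tumour libraries and at 4.97, 3.95 and 1.72 CPM in the sham libraries. Its level was low and sham library 3 was the lowest, and the rise was 1.45 (SE 0.35, edgeR adjusted p = 0.0327). The call on Cdc25c was lost without sham library 2 and without any 1 of the 3 tumour libraries.

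Of the 2 transcription factors of the G2/M programme, 1 was higher and 0 were lower, against 10.5% and 10.4% of all tested genes. Foxm1, which activates many of the genes described here, was at 31.8, 28.5 and 32.1 CPM in the tumour libraries and at 19.9, 20.9 and 15.7 CPM in the sham libraries. All tumour libraries were above all sham libraries, and Foxm1 rose by 0.71 (SE 0.12, edgeR adjusted p = 0.0119). Mybl2, which encodes B-MYB, had the lowest log2 change of the 54 and was at 2.61, 3.12 and 2.96 CPM in the tumour libraries and at 4.57, 3.82 and 2.77 CPM in the sham libraries. Its tumour values overlapped with sham library 3 and lay below sham libraries 1 and 2, and the log2 change was -0.36 (SE 0.24, edgeR adjusted p = 0.325).

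Among kinetochore and checkpoint genes 3 centromere proteins rose, and the checkpoint components Bub3 and Mad2l1 were not called. Of 8 in the set, 3 were higher (37.5%) and 0 were lower, against 10.5% and 10.4% of all tested genes. Their median was 0.71. Cenpa, the histone H3 variant that marks centromeres, was at 25.8, 29.8 and 25.8 CPM in the tumour libraries and at 14.7, 17 and 9.76 CPM in the sham libraries. It rose by 0.97 (SE 0.20, edgeR adjusted p = 0.0194). Cenpe, the kinesin that carries chromosomes to the spindle equator, was at 47.3, 52 and 51.2 CPM in the tumour libraries and at 31.2, 27.8 and 15.9 CPM in the sham libraries. Cenpf, a large outer kinetochore protein, was at 62.3, 61.5 and 62.7 CPM in the tumour libraries and at 38, 36.2 and 19.8 CPM in the sham libraries. In these 3 genes no tumour library reached down to a sham library; Cenpe rose by 1.01 (SE 0.23, edgeR adjusted p = 0.0292) and Cenpf by 0.99 (SE 0.23, edgeR adjusted p = 0.03). Both Cenpe and Cenpf lost the call when transcript length offsets were used, with changes of 0.91 and 0.98. Each also lost it without sham library 2 and without any 1 of the 3 tumour libraries. Bub3, the adaptor that brings BUB1 and BUBR1 to kinetochores, had every tumour library below every sham library, at 54.9, 54.6 and 51.4 CPM in the tumour libraries and at 64.8, 62.8 and 58.5 CPM in the sham libraries. It did not pass the threshold with TMM scaling, at -0.21 (SE 0.07, edgeR adjusted p = 0.0675); with library totals in place of TMM it was called lower, at -0.26 (edgeR adjusted p = 0.0472). Mad2l1, the checkpoint protein MAD2, overlapped between groups, with a log2 change of 0.05 that was -0.13 without sham library 3 and -0.01 with library totals. The 3 subunits of the NDC80 complex in the set were not called by edgeR. This complex holds the ends of microtubules. Its subunit Spc24, tested among the further mitosis genes, was not called by edgeR either (log2 change 0.52, edgeR adjusted p = 0.17). Ndc80 and Nuf2 had log2 changes of 0.80 and 0.61. DESeq2 called both higher (adjusted p = 0.0268 and 0.0167), and limma-voom called Nuf2 (adjusted p = 0.0457). Of all tested genes, DESeq2 called 13.6% higher and limma-voom 11.5%. Spc25, of the same complex, was at 21.9, 20.7 and 21.5 CPM in the tumour libraries and at 25.6, 24.2 and 14.3 CPM in the sham libraries. Spc25 in the tumour libraries lay below sham libraries 1 and 2 and above sham library 3 (edgeR adjusted p = 0.994).

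The chromosomal passenger complex, which carries Aurora B and corrects faulty attachments, had 1 of its 3 other members called higher and 0 lower. The share higher was 33.3%, against 10.5% of all tested genes, of which 10.4% were lower. Birc5, which encodes survivin, was at 15.8, 13.1 and 12.9 CPM in the tumour libraries and at 8.93, 10.1 and 6.76 CPM in the sham libraries. The groups did not overlap, and Birc5 rose by 0.70 (SE 0.18, edgeR adjusted p = 0.036). The call was kept in 8 of 16 alternatives. Among others it was lost with library totals (0.64), without sham library 1 (0.72) and without any 1 of the 3 tumour libraries. Incenp, the scaffold of the complex, was at 22.8, 23.3 and 24.9 CPM in the tumour libraries and at 20.8, 20.4 and 16 CPM in the sham libraries, a log2 change of 0.31 (SE 0.12, edgeR adjusted p = 0.111). Cdca8, which encodes borealin, also had no overlap and a log2 change of 0.50 (edgeR adjusted p = 0.112).

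Genes of mitotic exit were higher in 3 of 5 cases (60%) and lower in 0, against 10.5% and 10.4% of all tested genes. All 5 had every tumour library above every sham library, against 22.2% of all tested genes. Ube2c, the E2 enzyme that loads ubiquitin for the APC/C, was at 34.6, 34.8 and 32 CPM in the tumour libraries and at 21.1, 22.8 and 14.8 CPM in the sham libraries. It rose by 0.79 (SE 0.16, edgeR adjusted p = 0.0187). Pttg1, or securin, the inhibitor of separase, was at 19.7, 18.3 and 20.6 CPM in the tumour libraries and at 13.5, 12.6 and 8.08 CPM in the sham libraries, and rose by 0.77 (SE 0.20, edgeR adjusted p = 0.0363). The Pttg1 call was kept in 8 of 16 alternatives and, with 1 library left out, only without sham library 3. Espl1, or separase, the protease that cuts cohesin, was at 14.2, 12.5 and 12.7 CPM in the tumour libraries and at 9.81, 9.06 and 7.26 CPM in the sham libraries. Espl1 rose by 0.59 (SE 0.14, edgeR adjusted p = 0.0324) in summed counts, but its change was 0.01 when the fit allowed for transcript length. Cdc20, the APC/C activator of mid-mitosis, was at 39, 38.6 and 39.4 CPM in the tumour libraries and at 29.8, 33.3 and 19.7 CPM in the sham libraries. It was not called, with a log2 change of 0.50 (SE 0.18, edgeR adjusted p = 0.103), and neither was Cdca3, a trigger of mitotic entry (0.52, edgeR adjusted p = 0.0996).

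Spindle genes were higher in 2 of 6 cases (33.3%) and lower in 0, against 10.5% and 10.4% of all tested genes, with a median of 0.75. All 6 had every tumour library above every sham library, against 22.2% of all tested genes. Tpx2, which activates Aurora A on the spindle, was at 65, 64.1 and 56 CPM in the tumour libraries and at 41.9, 35.3 and 26.3 CPM in the sham libraries. It rose by 0.84 (SE 0.17, edgeR adjusted p = 0.0182). Tacc3, a microtubule cross-linker that acts with clathrin, was at 30.3, 33.3 and 30.2 CPM in the tumour libraries and at 19.9, 21.2 and 14.9 CPM in the sham libraries, and rose by 0.74 (SE 0.14, edgeR adjusted p = 0.0145). Kif2c, the microtubule-depolymerising kinesin MCAK, was at 21.5, 17.3 and 18.3 CPM in the tumour libraries and at 12.5, 11.7 and 6.26 CPM in the sham libraries. Its change of 0.91 (SE 0.26, edgeR adjusted p = 0.0522) was just short of the threshold, and DESeq2 (adjusted p = 0.00735) and limma-voom (adjusted p = 0.0373) called it higher. Kif11, the motor that pushes spindle poles apart, and the spindle proteins Hmmr and Nusap1 had log2 changes of 0.53 to 0.75 and were not called. In Hmmr sham library 3 (18.4 CPM) lay far below sham libraries 1 and 2 (44.7 and 40.6 CPM), which were closer to the tumour libraries (56.6, 58.1 and 60 CPM).

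The summed level of the cytokinesis genes was 435, 439 and 439 CPM in the tumour libraries and 252, 253 and 143 CPM in the sham libraries, 2.03 times the sham mean and 1.73 times that of sham libraries 1 and 2; the CDC25 phosphatases were at 1.9 and 1.78 times. Of 8 in the set, 4 were higher (50%) and 0 were lower, against 10.5% and 10.4% of all tested genes, and the median was 0.83. All 8 had every tumour library above every sham library, against 22.2% of all tested genes. Anln, or anillin, the scaffold that ties actin, septins and RhoA together in the contractile ring, at chr9:22332012-22389188, was at 155, 157 and 155 CPM in the tumour libraries and at 65.6, 66.7 and 36.1 CPM in the sham libraries. It had the highest fitted change of the 54, a rise of 1.47 (SE 0.23, edgeR adjusted p = 0.00816), or 2.77-fold, and 1.23 without sham library 3. Anillin is also known in myelinating oligodendrocytes; oligodendrocyte markers summed to 971 to 1000 CPM in the tumour libraries and 1070, 1090 and 701 CPM in the sham libraries, mostly from Cldn11. Of these 8 markers 5 passed the filter and 0 were called by edgeR, with 1 higher and 0 lower at an unadjusted p below 0.05. That gene, Mbp, was at 11.9, 13.7 and 12.3 CPM in the tumour libraries and at 3.03, 1.91 and 7.85 CPM in the sham libraries, while Mog and Mag were below 0.3 CPM in all 6. The part of these cells in the Anln result was not tested. Racgap1, the GAP subunit of centralspindlin, at chr15:99620496-99651656, was at 48.4, 51.3 and 49.9 CPM in the tumour libraries and at 28.4, 29.1 and 26.3 CPM in the sham libraries. It had the smallest p of the 54, with no overlap between groups, and a rise of 0.84 (SE 0.07, edgeR adjusted p = 0.00108). Ect2, the exchange factor that switches on RhoA at the cell equator, was at 28.2, 29.2 and 29.1 CPM in the tumour libraries and at 17.7, 20.6 and 14.6 CPM in the sham libraries. Prc1, which bundles the microtubules of the central spindle, was at 70.9, 68.2 and 71.8 CPM in the tumour libraries and at 48.2, 46.7 and 27.5 CPM in the sham libraries. Ect2 rose by 0.71 (SE 0.13, edgeR adjusted p = 0.0133) and Prc1 by 0.79 (SE 0.21, edgeR adjusted p = 0.0406). The Prc1 call was kept in 5 of 16 alternatives. It was lost with upper quartile scaling (0.76), library totals (0.73), no count filter (0.78) and transcript length offsets (0.70). With 1 library left out, it was kept only without sham library 3. The kinesins Kif4, Kif20a, Kif20b and Kif23, which build and load the midzone, had log2 changes of 0.60 to 0.93 and were not called by edgeR. DESeq2 called Kif4, Kif20a and Kif23 higher (adjusted p = 0.00705, 0.0162 and 0.0376), and limma-voom called Kif4 (adjusted p = 0.035). The shares of all tested genes called higher were 13.6% by DESeq2 and 11.5% by limma-voom. In each of these 4 kinesins sham library 3 was well below the other sham libraries, for example 19.1 CPM against 45.1 and 45.4 CPM for Kif20a.

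Genes of chromosome structure and condensation were higher in 4 of 7 cases (57.1%) and lower in 0, against 10.5% and 10.4% of all tested genes. Their median was 0.57. Mki67, the proliferation antigen that coats mitotic chromosomes, was at 65.3, 79.8 and 74.1 CPM in the tumour libraries and at 42.7, 44.8 and 30.4 CPM in the sham libraries. It rose by 0.89 (SE 0.16, edgeR adjusted p = 0.0123), with no overlap. Smc4, the ATPase core of condensin, at chr3:69004738-69034623, was at 105, 99.1 and 93.5 CPM in the tumour libraries and at 66.3, 66 and 56.6 CPM in the sham libraries, and rose by 0.66 (SE 0.09, edgeR adjusted p = 0.00465). Ncapd2, a regulatory subunit of condensin I, was at 51.3, 49.2 and 47.1 CPM in the tumour libraries and at 36.1, 37 and 23.9 CPM in the sham libraries. Hmgb2, a chromatin protein abundant in dividing cells, was at 62.1, 67.6 and 65 CPM in the tumour libraries and at 50.8, 51.3 and 38.9 CPM in the sham libraries. Ncapd2 rose by 0.61 (SE 0.17, edgeR adjusted p = 0.0467) and Hmgb2 by 0.47 (SE 0.12, edgeR adjusted p = 0.0351). These calls were kept in 6 and 7 of 16 alternatives. Both were lost with upper quartile scaling (0.58 and 0.44) and library totals (0.55 and 0.41). With 1 library left out, both were kept only without sham library 3. The change of Ncapd2 fell to 0.28 with transcript length offsets. Top2a, the topoisomerase that untangles sister chromatids, was at 136, 135 and 138 CPM in the tumour libraries and at 112, 103 and 59.9 CPM in the sham libraries. The groups did not overlap, sham library 3 stood far below sham libraries 1 and 2, and the log2 change of 0.57 (SE 0.22, edgeR adjusted p = 0.114) was not called. The other condensin genes in the set, Smc2 and Ncapg, had log2 changes of 0.30 and 0.34 and were not called.

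Compared per length, in TPM (transcripts per 1000000 transcripts, mean over the 6 libraries), Cdk1 (86.1), Ube2c (52.9), Hmgb2 (51.4), Top2a (45.5), Pttg1 (45.3) and Anln (43.5) were at the high end, and Mybl2 (1.83), Espl1 (3.03) and Ccnf (3.06) at the low end. The Cdk1 value includes Cdk1-204, a retained-intron transcript of 475 bases with 24.3 to 38.5 TPM, and the coding Cdk1-202 had 39.9 to 43.1 TPM in the tumour libraries and 39.8, 37.2 and 25.4 TPM in the sham libraries. Subunits of shared complexes were not at equal levels: Ndc80, Nuf2 and Spc25 were at 5.25, 12.5 and 29.2 TPM, and Smc2, Smc4, Ncapg and Ncapd2 at 11.6, 31.9, 6.04 and 18.1 TPM. Both main coding transcripts of Anln were higher in each tumour library than in any sham library. Anln-201, of 4605 bases, was at 48.8, 48.7 and 48.4 TPM in the tumour libraries and 19.5, 20.1 and 11.5 TPM in the sham libraries, and Anln-202, of 718 bases, at 15, 12.7 and 16.5 TPM and 6.88, 8.5 and 2.82 TPM. For Smc4 the coding Smc4-201 was at 17.6 to 18.5 TPM in the tumour libraries and 7.46 to 11 TPM in the sham libraries, whereas Smc4-207, annotated for nonsense-mediated decay, overlapped between the groups at 8.16 to 17.9 TPM. In 10 of the 54 genes at least 300 bases matched another gene at 95% identity or more, so their reads could be shared. These were overlapping neighbours for Ccna2, Kif20a, Kif4, Ncapg and Prc1, and pseudogenes for Ccnb1, Hmgb2, Mad2l1, Mybl2 and Ndc80. The neighbours averaged 21.5, 75.1, 46.1, 37.1 and 6.39 CPM, against 29.4, 53, 13.9, 13.1 and 55.6 CPM for the members. The highest pseudogene was at 10.2 CPM for Hmgb2 (56 CPM) and 2.25 CPM for Ndc80 (8.28 CPM). Those of Ccnb1, Mad2l1 and Mybl2 were at most 0.0287 CPM. The effect of shared reads was not tested.

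Of 79 further mitosis genes tested, 17 were higher and 1 was lower (21.5% and 1.27%, against 10.5% and 10.4% of all tested genes), with a median log2 fold change of 0.39. Tmpo, a nuclear envelope protein that binds lamins, was at 174, 173 and 169 CPM in the tumour libraries and at 100, 104 and 106 CPM in the sham libraries, and rose by 0.74 (SE 0.06, edgeR adjusted p = 0.000906). Unlike most of the 54 genes, its 3 sham libraries were level. G2e3, a ubiquitin ligase named for its G2/M expression, rose by 0.93 (SE 0.10, edgeR adjusted p = 0.00264), Knstrn, a kinetochore and spindle adaptor, by 0.82 (SE 0.11, edgeR adjusted p = 0.00567), and Arhgap11a, a RhoA GAP, by 0.56 (SE 0.08, edgeR adjusted p = 0.00567). The 1 lower gene, named after its values were seen, was Arpp19, an inhibitor of the phosphatase PP2A in mitosis, at -0.43 (SE 0.09, edgeR adjusted p = 0.0174). In the 17 core subunits and regulators of the APC/C, edgeR called 0 in either direction, with 1 higher and 2 lower at an unadjusted p below 0.05, and the median was 0.02. Its 2 most abundant genes, the subunits Anapc1 and Anapc5, were at 166, 158 and 158 CPM in the tumour libraries and at 144, 147 and 157 CPM in the sham libraries and at 153, 150 and 146 CPM in the tumour libraries and at 128, 128 and 141 CPM in the sham libraries.

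Of 19 genes of the DREAM, MuvB and E2F machinery, 1 was higher and 3 were lower (5.26% and 15.8%, against 10.5% and 10.4% of all tested genes), with a median of 0.04; counts this small are near those shares. Rbl2, the pocket protein p130 found in DREAM in resting cells, rose by 0.46 (SE 0.12, edgeR adjusted p = 0.0426). Mybl1, which encodes A-MYB, fell, at -0.70 (SE 0.11, edgeR adjusted p = 0.00757), as did E2f5, a repressive E2F, at -0.52 (SE 0.13, edgeR adjusted p = 0.0323), and Tfdp1, the dimer partner of E2F proteins, at -0.44 (SE 0.10, edgeR adjusted p = 0.0229).

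A list of inhibitors and brakes of the cycle, which also holds the p53 antagonist Mdm2, had 16 genes tested. Of these, 4 were higher and 2 were lower (25% and 12.5%, against 10.5% and 10.4% of all tested genes). Gadd45a, a stress-induced inhibitor of CDK1, was at 58, 61.8 and 59 CPM in the tumour libraries and at 17.4, 17.4 and 12.1 CPM in the sham libraries. It rose by 1.93 (SE 0.15, edgeR adjusted p = 0.000854), more than any of the 54 mitotic genes. Btg1, an antiproliferative factor, rose by 0.98 (SE 0.07, edgeR adjusted p = 0.000727). Cdkn1c, the CDK inhibitor p57, was at 134, 136 and 139 CPM in the tumour libraries and at 278, 278 and 239 CPM in the sham libraries, and fell, at -0.96 (SE 0.08, edgeR adjusted p = 0.0013). Cdkn2b, or p15, also fell, at -0.45 (SE 0.07, edgeR adjusted p = 0.00654). The other 2 higher genes, named after their values were seen, were Cdkn1b, or p27, at 0.79 (SE 0.15, edgeR adjusted p = 0.0144), and the p53 antagonist Mdm2, at 0.27 (SE 0.06, edgeR adjusted p = 0.0271).

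Genes of the G1/S transition and of DNA replication were more often lower than higher in the tumour libraries. Of 48 tested, 1 was higher and 10 were lower (2.08% and 20.8%, against 10.5% and 10.4% of all tested genes), with a median of -0.24. Mcm2, a subunit of the replicative helicase, was at 18.4, 17.2 and 17.6 CPM in the tumour libraries and at 31.4, 32.1 and 28.7 CPM in the sham libraries, and fell, at -0.80 (SE 0.08, edgeR adjusted p = 0.00202). Ccne1, the cyclin that drives entry into S phase, was at 5.92, 5.88 and 5.96 CPM in the tumour libraries and at 13.5, 13.5 and 9.66 CPM in the sham libraries, and fell, at -1.05 (SE 0.16, edgeR adjusted p = 0.00814). Ccnd3, a D-type cyclin, and Mcm3 also fell, at -0.69 (SE 0.11, edgeR adjusted p = 0.00869) and -0.55 (SE 0.09, edgeR adjusted p = 0.0107). The summed level of Mcm2 to Mcm7 was 111, 116 and 122 CPM in the tumour libraries and 176, 180 and 150 CPM in the sham libraries, so the sum was lower in each tumour library also against sham library 3. Single genes differed: Mcm7 was at 21.2, 23.6 and 26.1 CPM in the tumour libraries and at 27.6, 26.9 and 25.9 CPM in the sham libraries, and its groups overlapped. Rrm1, a subunit of ribonucleotide reductase and the 1 higher gene, named after its values were seen, rose by 0.31 (SE 0.08, edgeR adjusted p = 0.0405). The summed level of the 54 mitotic genes over that of the G1/S list was 0.723, 0.72 and 0.713 in the tumour libraries and 0.518, 0.51 and 0.225 in the sham libraries. The low value of sham library 3 includes its D-type cyclins, which summed to 3100 CPM there and to 1770 to 1920 CPM in the other 5 libraries. Without the D-type cyclins the G1/S list summed to 884 to 888 CPM in the tumour libraries and 951 to 994 CPM in the sham libraries.

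**Figure D4:**
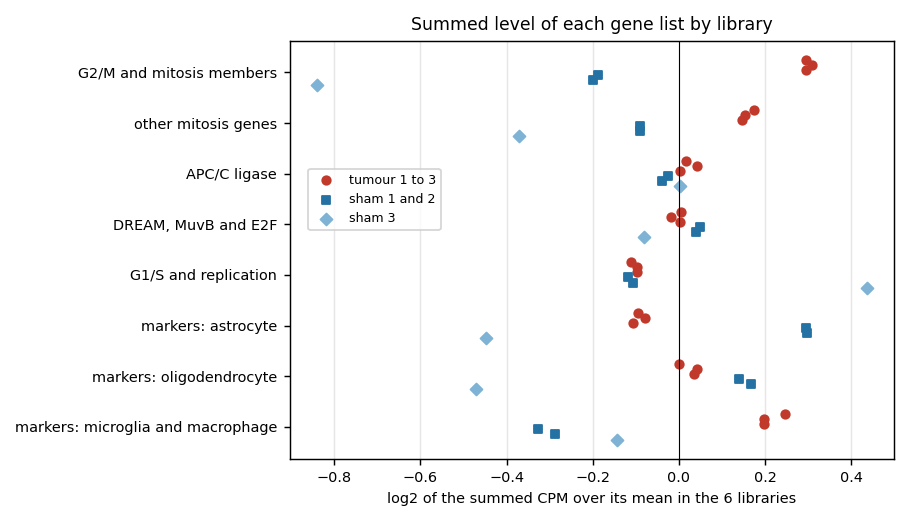
Summed CPM of each gene list in each library, as the log2 of its ratio to the mean of the 6 libraries; each point is 1 library. The 54 mitotic genes and the further mitosis genes place the tumour libraries highest and sham library 3 lowest, while the G1/S list places sham library 3 highest. The APC/C list was nearly level, at 1080 to 1110 CPM in the tumour libraries and 1060, 1050 and 1080 CPM in the sham libraries.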

How the data were processed

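Bulk RNA-seq of 6 libraries (3 tumour, 3 sham) was analysed from the deposited transcript tables. The authors deposited estimated counts per transcript; the submitters' processing notes name the mm10 build, Salmon 0.8.2 and DESeq2 1.28.1. TPM values and transcript lengths were deposited beside them, per the file headers. The sources used here give neither library kit nor strandedness, so overlapping antisense reads cannot be separated. Of 113116 transcripts, 112841 matched GENCODE M21 (GRCm38) by identifier and 275 did not. Gene totals of the estimated counts were then rounded to whole reads. Genes passed edgeR's filterByExpr (minimum count 10, minimum total 15), leaving 14359 of 35127. The main test was edgeR 4.0.16 in R 4.3.3: TMM, robust quasi-likelihood fit on group alone, Benjamini-Hochberg adjustment over all tested genes, threshold 0.05. SEs are absolute log2 fold changes divided by the root of the quasi-likelihood F. Limma 3.58.1 and DESeq2 1.42.0 served as alternatives, beside other scalings, filters, transcript length offsets, a replicate block, summed close libraries and leaving out each library. The scripts were tested on simulated data. Since separate animals are not stated, p-values measure only the spread between libraries, which may be technical.

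Values per library are given for the members past the threshold and, in each role class, for those with the highest level or the largest change. From each further list up to 4 called genes with the smallest p are named, or the 2 most abundant where none was called. Plk1, Spc25, Hmmr, Kif20a, Mcm7, Mbp and Cd68 are named in more detail, chosen after their values were seen. Members and lists were chosen with earlier results of these data known. Promoter sequences and motif shares come from RefSeq (GRCm38.p6). Markers of other cell types were read as summed CPM, tumour libraries first and sham libraries next. Neurons were at 202, 201 and 203, and at 153, 153 and 240. Oligodendrocyte precursors were at 358, 354 and 352, and at 298, 283 and 440. Endothelium was at 625, 622 and 632, and at 615, 622 and 556. Ependyma was at 119, 118 and 116, and at 181, 186 and 91.9. Lymphocytes were at most 0.592. The part of these cells in the results was not tested.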

Additional observations from a re-analysis of the deposited data

How the results depend on the processing

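Of 16 alternatives, all kept a positive median log2 fold change of the 54 genes (0.45 to 0.79), and the number called higher ranged from 0 to 44, against 23. Ccna2, Ccnb2, Cdc25b, Anln, Racgap1 and Smc4 were called in 15 of the 16, the exception being the summed close libraries. The share of all genes called as often was not counted. Other tools and scalings called 18 (library totals), 20 (upper quartile), 23 (DESeq2 size factors), 27 (limma-voom) and 32 (DESeq2), where 9.18%, 10%, 10.5%, 11.5% and 13.6% of all genes were called higher. Library totals called 1 gene lower, Bub3. Transcript length offsets called 17 higher, where 7.49% of all genes were called higher, with 969 of all genes lower, 11 further mitosis genes higher and 6 G1/S genes lower. With the close libraries summed, edgeR called 0 in every count: mitotic genes higher, all genes higher, all genes lower, role classes with a call, further mitosis genes and G1/S genes. The design then had 3 libraries.

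Same-numbered libraries showed no shared deviation (correlations 0.00785, -0.0194 and -0.0008). Deviations in the sham group largely reflect the sham library farthest from the others, so this check cannot decide whether the numbers pair libraries. A replicate block called 14 of the 54 genes higher, 807 of all genes higher and 588 lower, 8 further mitosis genes higher and 5 G1/S genes lower.

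Leaving out 1 library gave 6 to 44 of the 54 genes higher and 0 to 3 lower, 536 to 4250 of all genes higher and 355 to 4179 lower, 4 to 10 role classes with a call, 5 to 34 further mitosis genes higher and 1 to 24 G1/S genes lower. The highest value in each case was without sham library 3.

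Among the 54 genes, 3 changed sign under some alternative. Spc25, just below 0, was at 0.04 with limma-voom, 0.08 with transcript length offsets, 0.04 with the replicate block, 0.11 with close libraries summed, and 0.02, 0.14 and 0.09 without tumour library 2, sham library 1 or sham library 2, over a range of -0.22 to 0.14 when 1 library was left out. Mad2l1 (0.05) was at -0.01 with library totals and -0.13 without sham library 3, over a range of -0.13 to 0.17 when 1 library was left out. Plk4 (0.23) was at -0.15 with transcript length offsets. The cause of these changes was not tested. Depth was 24524764 to 25800897 estimated reads in the tumour libraries and 22133723 to 23328811 in the sham libraries. Mybl2, at 1.83 TPM, and Cdc25c had the fewest reads among the 54 genes.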
